A study of Mus musculus with 4 samples.

Results

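The genes described here are 44 genes of mitosis and the kinetochore, chosen by name from a list, in 4TO7 mouse mammary tumour cells. All 44 were found among the 20500 genes tested, each read by the probe of its gene with the highest mean intensity. The cells carried either the retroviral vector pMSCV-puro (2 arrays, the vector group) or pMSCV-miR-23b/27b/24, which adds the microRNA cluster miR-23b/27b/24 (2 arrays, the cluster group). Per the labels, both are stable lines with a BALB/cfC3H strain background, grown in culture for several passages before RNA was taken, and the design text names 2 transfection replicates per group. Whether these were separate cultures is not clear for a stable line, so the errors and p-values below measure only the spread between these arrays, which may be technical. The sources used here do not say whether a line is 1 clone, and the level of the microRNAs themselves was not analysed here. On each array the cells' RNA carried Cy5, and a pool of RNA from 11 mouse cell lines, Universal Mouse Reference RNA, carried Cy3; dyes were never swapped. The question put to these genes was whether their transcripts differ when the cluster is overexpressed.

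Mitosis begins when Cdk1, bound to cyclin B, is switched on by Cdc25 phosphatases and is driven forward by kinases of the Polo and Aurora families. The kinetochore, a protein assembly on the centromere, ties each chromosome to the spindle, and the spindle checkpoint holds back the anaphase-promoting complex until all are attached. Separase then cuts the cohesin that joins sister chromatids, and the central spindle guides cytokinesis. In dividing cells the messages of many of these genes accumulate in the G2 and M phases. Many of their promoters hold a CHR element, bound by the MuvB complex, and CCAAT boxes, bound by NF-Y.

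Promoter windows in a RefSeq table of GRCm38.p6, from 250 bases before to 50 bases after an annotated start, were matched to 37 of the 44 genes. The windows show what these genes share outside their measured levels. The words TTTGAA and TTCGAA, used for the CHR on both strands, were in the window of 27 of 37 members (73.0%) and of 21.7% of 27025 genes in the table. CCAAT on either strand was in 28 of 37 (75.7%), against 41.1% of all genes, and within the last 100 bases before the start in 70.3% of members against 22.0%. Both words stood together in 24 of 37 members (64.9%), against 8.61% of all genes and 7.31% of the 12792 tested genes with a window. The E2F words TTTCCCGC and TTTGGCGC were in the windows of 0 of 37 members and of 1.80% of all genes, which says only that these letters are not in these windows. A match is a description of letters, not of a bound site. CHR and CCAAT words can share an end letter, and each was counted on its own.

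The 100 bases before the start are printed below for 6 members, picked after their letters were seen. The first 5 hold both kinds of word before the start, and Ccnb1, which encodes cyclin B1, holds CCAAT without a CHR word. Espl1 (separase) lies at chr15:102296193-102296292 on the plus strand, Cdc20 at chr4:118437344-118437443 on the minus strand and Ube2c at chr2:164769829-164769928 on the plus strand. Cdk1 lies at chr10:69352913-69353012, Top2a at chr11:99024190-99024289 and Ccnb1 at chr13:100786487-100786586, all on the minus strand. Each is written 5′ to 3′ in the direction of its gene, with the words in capitals on whichever strand they match.
Espl1: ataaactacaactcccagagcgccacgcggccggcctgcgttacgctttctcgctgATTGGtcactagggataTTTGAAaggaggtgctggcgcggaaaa
Cdc20: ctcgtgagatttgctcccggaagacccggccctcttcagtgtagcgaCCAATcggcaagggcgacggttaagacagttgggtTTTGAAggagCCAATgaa
Ube2c: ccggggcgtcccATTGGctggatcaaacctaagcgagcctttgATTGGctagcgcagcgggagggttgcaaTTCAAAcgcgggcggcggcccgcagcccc
Cdk1: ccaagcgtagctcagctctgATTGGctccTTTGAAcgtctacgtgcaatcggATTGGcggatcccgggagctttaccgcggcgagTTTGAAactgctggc
Top2a: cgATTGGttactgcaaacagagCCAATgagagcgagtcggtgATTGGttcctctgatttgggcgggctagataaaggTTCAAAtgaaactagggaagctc
Ccnb1: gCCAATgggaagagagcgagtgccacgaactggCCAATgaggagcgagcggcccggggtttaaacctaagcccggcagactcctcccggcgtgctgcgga
In Cdc20, Cdk1, Espl1, Top2a and Ube2c a CHR word lies downstream of at least 1 CCAAT word. The median difference between groups, described below, was 0.745 in the 27 members with a CHR word and 0.46 in the 10 without, and 0.73 in the 28 with a CCAAT word and 0.745 in the 9 without, as descriptions over genes with no test. The gap between the vector arrays had a median of 1.02 with a CHR word and 1.15 without, and of 1.09 with a CCAAT word and 1.00 without.

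**Figure D1:**
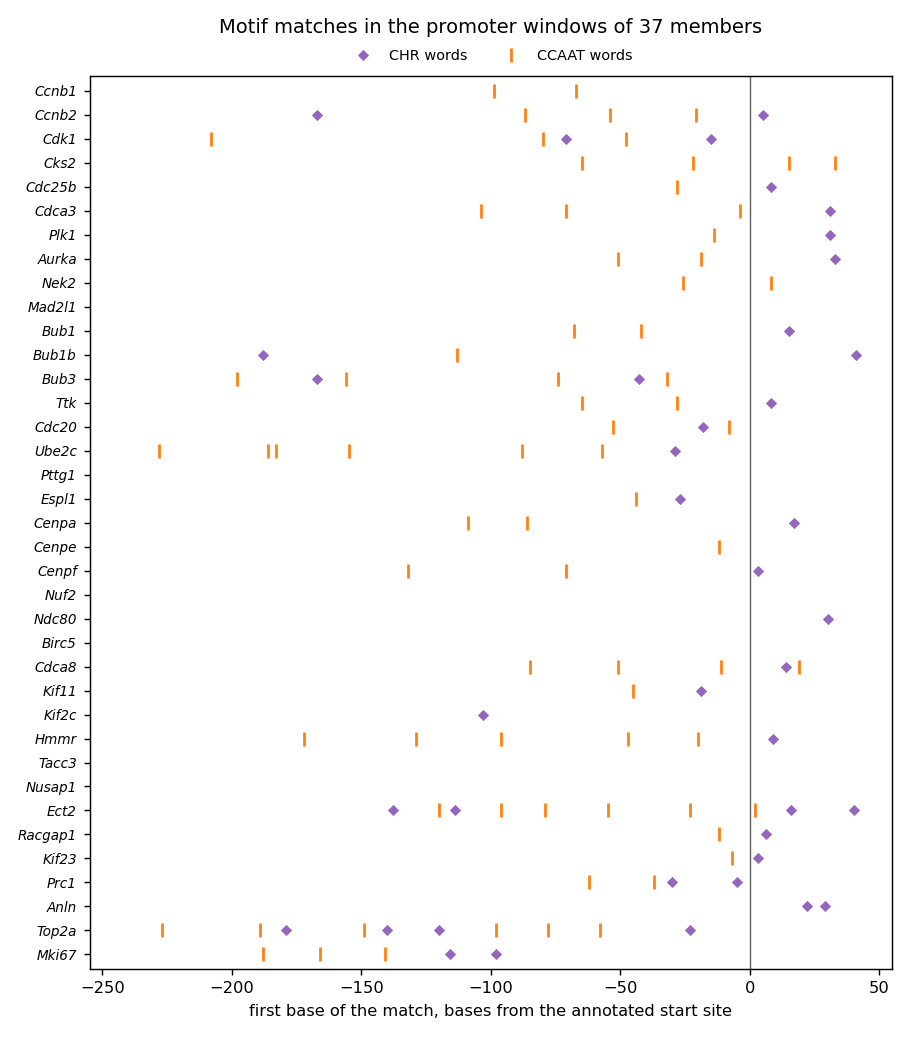
Positions of CHR words (diamonds) and CCAAT words (bars) in the promoter windows of 37 members, with the distance of the first base from the annotated start site on the x axis; windows of members with 2 annotated starts are overlaid. CCAAT words were found in the last 100 bases before the start in 70.3% of the members, against 22.0% of all genes. CHR words were found in that stretch in 24.3% of the members, against 7.40% of all genes. The other CHR words lie farther upstream, as in Kif2c, or after the start, as in Plk1.

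Every member's probe gave a signal well above background in Cy5 and in Cy3 on each of the 4 arrays, and none was saturated in Cy5; of all 41174 gene probes, 69.9% to 74.8% per array were that bright in Cy5. Of 6 mammary epithelial markers, Krt7, Krt19, Epcam and Cdh1 were lower in the cluster group (limma adjusted p under 0.05). Krt18 differed by -1.40 (limma adjusted p = 0.065) and Krt8 by 0.30 (limma adjusted p = 0.607), and neither was called. The medians of the 6 were 1.82 and 1.53 on the vector arrays and -0.30 and -0.19 on the cluster arrays. The part of this difference in the values below was not tested. Ptprc, the leukocyte marker CD45, lay between -5.82 and -5.72 on all 4 arrays. All 4 arrays were on 1 slide and in 1 scan.

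1 array stood apart for these genes. All 44 members had a lower log2 ratio of cells over reference on vector replicate 2 than on vector replicate 1, and all 44 were lowest on vector replicate 2 of the 4 arrays, as were 28.8% of all genes tested. Vector replicate 2 was also the lowest array for 92 of 102 other mitosis genes and for 39 of 44 DNA replication genes. Among the cell type markers, the gap between the vector arrays was 2.53 for Fabp4, 1.49 for Vim, 0.91 for Krt8, 0.85 for Krt19 and 0.72 for Krt18, but -0.018 for Krt7, -0.17 for Cdh1 and -0.25 for Epcam. The median member ratio was 0.11 on vector replicate 1 and -0.96 on vector replicate 2, against 0.37 and 0.27 on the cluster arrays. 25 members lay above the reference on vector replicate 1, 1 (Cenpa) on vector replicate 2 and 35 on each cluster array. The gap between the vector arrays, replicate 1 minus replicate 2, had a median of 1.09 and ran from 0.46 for Cdca8 to 1.49 for Kif20a, with a median of 0.011 over all genes. A gap at least as large as the smallest of the members was found in 9.82% of all genes, and one at least as large as their median in 1.29%. The cluster arrays lay close together, with a median absolute gap of 0.12. A smaller share of dividing cells and less of each message per cell cannot be told apart in RNA from a whole culture.

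The gap was in the cells' channel. Before normalization, the member probes' Cy5 signal on vector replicate 1 exceeded that on vector replicate 2 by a median of 1.44 on the log2 scale (range 0.83 to 2.08), against 0.096 over all genes. In Cy3, the reference channel, the same difference was 0.092 for the members (range -0.089 to 0.30) and 0.10 for all genes. The median member Cy5 signal was 12.8 on vector replicate 1, 11.4 on vector replicate 2, and 12.8 and 12.7 on the cluster arrays. Member probes were brighter than the median gene probe, and these signals had no scaling by intensity. The median member gap was 1.09 with loess, 1.34 with median centring and 1.05 with Cy5 alone quantile normalized. Of 27 further probes of 21 members, 25 were lower on vector replicate 2, the exceptions being 1 probe of Cenpa and 1 of Top2a, both dim, with gaps of -0.045 and -0.044.

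**Figure D2:**
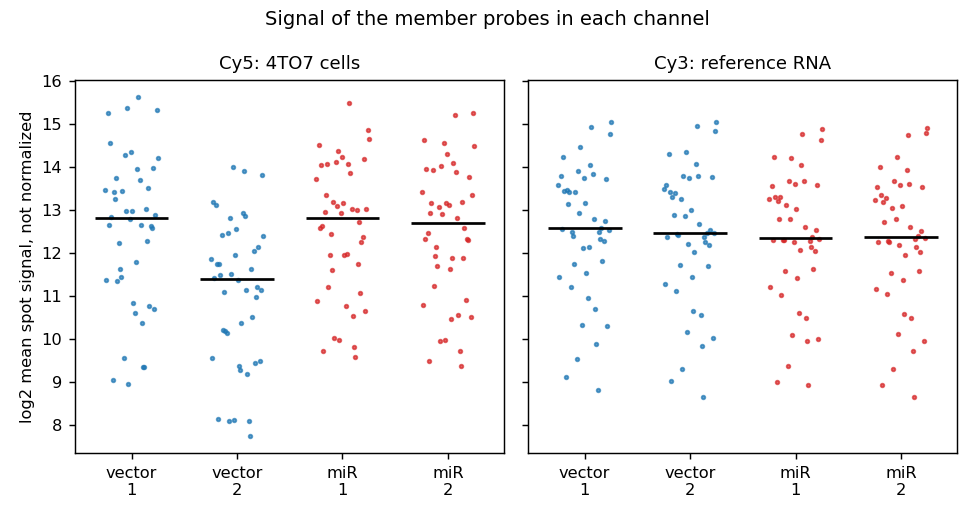
Log2 mean spot signal of the 44 member probes, not normalized, in the Cy5 channel (4TO7 cells, left) and the Cy3 channel (reference RNA, right) of each array, with 1 point per gene and a line at the median. The Cy5 median is 11.4 on vector replicate 2 and between 12.7 and 12.8 on the other arrays, while the Cy3 medians lie between 12.3 and 12.6.

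Between the groups, 1 of 44 members, Espl1, was called higher in the cluster group and 0 were called lower (limma, adjusted p under 0.05 over all genes). Over all genes tested, 4.77% were called higher and 4.64% lower, so the share of members called was not above the background. An unadjusted p under 0.05 was found for 13 members and for 5679 of the 20500 genes. The difference, mean of the cluster arrays minus mean of the vector arrays, was above 0 for 42 members (45.8% of all genes), with a median of 0.75 against -0.030 for all genes. Both cluster arrays lay above both vector arrays for 30 members, against 27.4% of all genes, and below them for 0, against 32.3%. In 37 members the gap between the vector arrays was larger than the difference between groups, as in 45.2% of all genes. An exact permutation test of 2 against 2 arrays cannot give a two-sided p below 0.333, so single genes rest on the spread that limma pools over all genes.

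**Figure D3:**
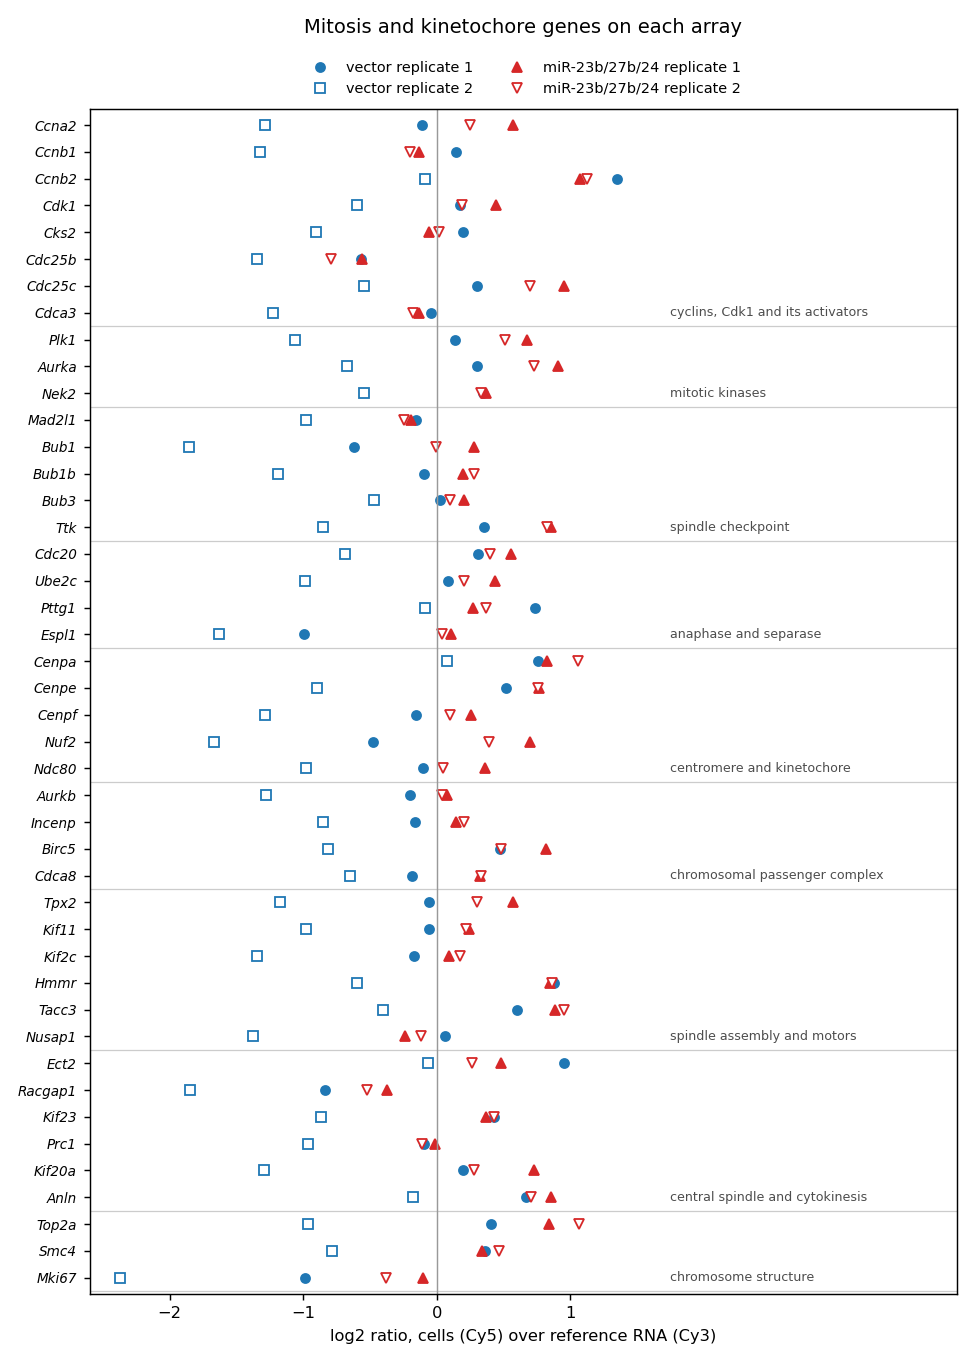
Log2 ratio of cells (Cy5) over reference RNA (Cy3) for each member on each array, grouped by role, with vector arrays in blue and cluster arrays in red. The open squares of vector replicate 2 are the lowest of the 4 points in all 44 genes, and vector replicate 1 lies between it and the cluster arrays in 30.

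The difference depended on which vector array was used. Against vector replicate 1 alone, the cluster arrays were higher in 33 members, with a median of 0.25, and 2 members (Espl1 and Nuf2) were called higher, where 6.26% of all genes were called higher and 7.02% lower. Against vector replicate 2 alone, they were higher in all 44, with a median of 1.29, and 42 were called (all but Ect2 and Pttg1), where 10.8% of all genes were called higher. These fits take the spread of the single array from the group that keeps both of its arrays. Vector replicate 1 lay between vector replicate 2 and the cluster arrays in 30 members, within the range of the cluster arrays in 5 and above both of them in 9. Over all 20500 genes tested these counts were 3385, 3662 and 9150. The cluster mean was above vector replicate 1 in 46.2% of all genes and above vector replicate 2 in 47.5%. Each order of arrays is that of a gene's brightest probe. Further probes of some members, such as Cdca3 and Smc4, gave another order. With cluster replicate 1 or cluster replicate 2 left out, 0 members were called, and the smallest adjusted p of a member was 0.207 and 0.160.

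**Figure D4:**
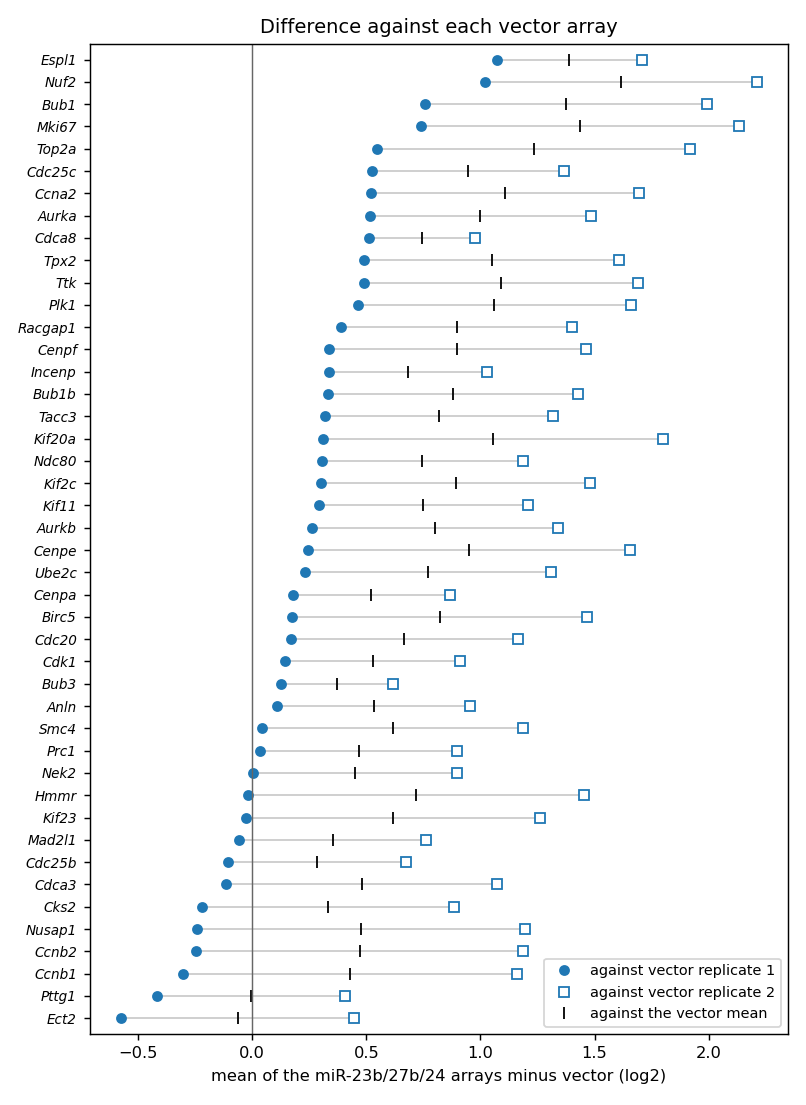
Mean of the cluster arrays minus each vector array for the 44 members, on the log2 scale, against vector replicate 1 (filled circles), vector replicate 2 (open squares) and the mean of both (ticks). All squares lie above 0, and 11 circles lie below 0, those from Hmmr down to Ect2.

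Separase and the genes of anaphase were the group with the called member. Espl1, which encodes the protease that cuts cohesin, read -0.99 and -1.63 on the vector arrays and 0.11 and 0.042 on the cluster arrays. Both cluster arrays were above both vector arrays, and its vector gap of 0.64 was the third smallest of the members. The difference was 1.39 ± 0.24 (SE, with 2 arrays in each group; limma adjusted p = 0.0352), a 2.62-fold rise, with a 95% interval from 0.77 to 2.00. It was 1.71 without vector replicate 1 and 1.07 without vector replicate 2, both called. With every local background as measured it was 1.09 with an adjusted p of 0.153, and over the alternatives the adjusted p ran from 0.00368 to 0.207. In mm7, the build of the probe positions in the scanner files, the Espl1 probe spans 102309370 to 102309608 of chromosome 15. It is a dim probe among the members. Its Cy5 signal before normalization was 8.96 and 8.13 on the vector arrays, against member medians of 12.8 and 11.4. A second Espl1 probe did not pass the filter on dim probes and differed by -0.054. Pttg1 encodes securin, the inhibitor that separase is freed from at anaphase. Its ratios were 0.74 and -0.087 on the vector arrays and 0.27 and 0.37 on the cluster arrays, so that both cluster arrays fell inside the vector gap of 0.82. The group difference of Pttg1 was -0.0049 ± 0.29 (SE, limma adjusted p = 0.994). Whether the enzyme and its inhibitor differ from each other was not tested.

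Cdc20 and Ube2c act one step earlier, as the activator of the anaphase-promoting complex and as its ubiquitin-conjugating enzyme. Cdc20 read 0.31 and -0.69 on the vector arrays and 0.56 and 0.40 on the cluster arrays. Ube2c read 0.087 and -0.99 on the vector arrays and 0.44 and 0.20 on the cluster arrays, with a vector gap of 1.08 and a difference of 0.77 ± 0.37 (SE, limma adjusted p = 0.265). Neither passed the test, and for both the first vector array lay closer to the cluster arrays than to the second vector array.

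In the centromere and kinetochore group, both cluster arrays lay above both vector arrays for all 5 members, and none was called. The same held for 30 of all 44 members and for 27.4% of all genes tested. Nuf2, a subunit of the NDC80 complex that grips microtubules, had the largest difference of all members. Its ratios were -0.48 and -1.66 on the vector arrays and 0.70 and 0.39 on the cluster arrays, and the vector gap was 1.19. The difference of Nuf2 was 1.62 ± 0.41 (SE, limma adjusted p = 0.0792). Its partner subunit Ndc80 read -0.10 and -0.98 on the vector arrays and 0.36 and 0.044 on the cluster arrays, a difference of 0.74. Cenpe, a kinesin that moves chromosomes to the spindle equator, had the largest vector gap of the group, 1.41. Its ratios were 0.52 and -0.89 on the vector arrays and 0.76 and 0.76 on the cluster arrays, with a difference of 0.95 ± 0.47 (SE, limma adjusted p = 0.274). Cenpa, the histone H3 variant that marks centromeres, read 0.76 and 0.075 on the vector arrays and 0.82 and 1.06 on the cluster arrays and was the only member above the reference on all 4 arrays. Cenpf, a large kinetochore protein, read -0.16 and -1.28 on the vector arrays and 0.26 and 0.098 on the cluster arrays. On the brightest probe of all 5 genes, vector replicate 1 lay between vector replicate 2 and the cluster arrays. A dimmer Cenpf probe read 0.18 on vector replicate 1, above the cluster arrays at -0.066 and -0.080. A dimmer Cenpe probe read 1.999 there, against 1.998 and 1.860, while another Cenpe probe kept the order. On a dim Cenpa probe both cluster arrays were above both vector arrays, but vector replicate 1 (0.053) lay below vector replicate 2 (0.098).

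Among the 5 spindle checkpoint genes, Bub1, a kinase that recruits other checkpoint proteins to kinetochores, differed most. Bub1 read -0.62 and -1.85 on the vector arrays and 0.28 and -0.0056 on the cluster arrays, with the largest vector gap of its group, 1.24. The difference was 1.37 ± 0.42 (SE, limma adjusted p = 0.117). Ttk, the Mps1 kinase that starts checkpoint signalling, read 0.35 and -0.85 on the vector arrays and 0.86 and 0.83 on the cluster arrays. Bub1b, which encodes the BubR1 inhibitor of Cdc20, read -0.096 and -1.19 on the vector arrays and 0.20 and 0.28 on the cluster arrays. For these 3 genes both cluster arrays lay above both vector arrays, as in 27.4% of all genes tested. Bub3, the partner of Bub1 and BubR1, read 0.025 and -0.47 on the vector arrays and 0.20 and 0.097 on the cluster arrays. Its groups stood in the same order but within a narrower range. A dimmer Bub3 probe read 0.55 on vector replicate 1, above the cluster arrays at 0.48 and 0.51, while a still dimmer probe kept the order. Mad2l1, the Mad2 protein that holds Cdc20, read -0.16 and -0.98 on the vector arrays and -0.19 and -0.24 on the cluster arrays. There vector replicate 1 lay above both cluster arrays, and the group difference of 0.35 rested on vector replicate 2.

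The 8 cyclins, Cdk1 and activators had a median difference of 0.47 and a median vector gap of 1.14. Cdc25c, a phosphatase that activates Cdk1, had the smallest p of the group. It read 0.30 and -0.54 on the vector arrays and 0.95 and 0.70 on the cluster arrays, a vector gap of 0.84 and a difference of 0.95 ± 0.31 (SE, limma adjusted p = 0.128). Ccna2, which encodes cyclin A2 of S phase and early mitosis, read -0.11 and -1.28 on the vector arrays and 0.57 and 0.25 on the cluster arrays, a difference of 1.11. Cdk1 itself read 0.17 and -0.59 on the vector arrays and 0.45 and 0.19 on the cluster arrays. In these 3 of the 8 genes both cluster arrays lay above both vector arrays, as in 27.4% of all genes tested. The second Cdc25c probe kept this order. A dim second Cdk1 probe overlapped, with 0.18 and 0.053 on the vector arrays and 0.29 and 0.058 on the cluster arrays.

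The B cyclins and 3 further genes of that group overlapped between the groups. Ccnb1 had the largest vector gap there, 1.46. Its ratios were 0.14 and -1.32 on the vector arrays and -0.13 and -0.20 on the cluster arrays, and its difference was 0.43 ± 0.49 (SE, limma adjusted p = 0.633). Ccnb2, which encodes cyclin B2, read 1.35 and -0.090 on the vector arrays and 1.07 and 1.12 on the cluster arrays. For both B cyclins, vector replicate 1 was the highest of the 4 arrays, so that the sign of the difference came from vector replicate 2. Cks2, a small subunit of Cdk complexes, read 0.20 and -0.91 on the vector arrays and -0.055 and 0.015 on the cluster arrays. Cdca3, an F-box-like protein of mitotic entry, read -0.041 and -1.23 on the vector arrays and -0.13 and -0.18 on the cluster arrays. In both, as in the B cyclins, vector replicate 1 was the highest array and vector replicate 2 the lowest. Cdc25b, a second Cdk1 phosphatase, read -0.56 and -1.34 on the vector arrays and -0.56 and -0.79 on the cluster arrays, with vector replicate 1 inside the range of the cluster arrays.

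Of the mitotic kinases, Aurka, which encodes Aurora A of the centrosome, read 0.30 and -0.67 on the vector arrays and 0.91 and 0.73 on the cluster arrays. Its vector gap was 0.97 and its difference 1.00 ± 0.34 (SE, limma adjusted p = 0.142). Plk1, the Polo-like kinase, read 0.14 and -1.06 on the vector arrays and 0.68 and 0.51 on the cluster arrays, with a vector gap of 1.20 and a difference of 1.06 ± 0.41 (SE, limma adjusted p = 0.179). For both kinases the cluster arrays lay above both vector arrays, as in 27.4% of all genes tested. Their vector gaps were about as large as their differences. Nek2, a kinase that separates centrosomes, read 0.35 and -0.54 on the vector arrays and 0.37 and 0.33 on the cluster arrays, and vector replicate 1 lay between the cluster arrays.

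The chromosomal passenger complex joins Aurora B kinase (Aurkb) to Incenp, survivin (Birc5) and borealin (Cdca8), and corrects faulty attachments. Cdca8 had the smallest vector gap of all members, 0.46. It read -0.18 and -0.65 on the vector arrays and 0.32 and 0.33 on the cluster arrays, and its difference was 0.74 ± 0.19 (SE, limma adjusted p = 0.0794). On a dimmer Cdca8 probe the vector gap was 0.78 and the difference 0.54, and the groups overlapped. A still dimmer probe gave 0.012 and 0.37, with no overlap. With the mean of its probes the difference was 0.55 (limma adjusted p = 0.164). Birc5 had the largest gap of the complex, 1.29. It read 0.47 and -0.82 on the vector arrays and 0.82 and 0.48 on the cluster arrays, with a difference of 0.82 ± 0.44 (SE, limma adjusted p = 0.311). Aurkb read -0.20 and -1.28 on the vector arrays and 0.077 and 0.042 on the cluster arrays. Incenp, the scaffold, read -0.16 and -0.85 on the vector arrays and 0.14 and 0.20 on the cluster arrays. The 4 differences lay between 0.68 and 0.82 while the vector gaps ran from 0.46 to 1.29. In all 4 genes the groups did not overlap on the brightest probe, as in 30 of all 44 members. Over all genes tested, 27.4% had both cluster arrays above both vector arrays.

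Of the genes of spindle assembly, Tpx2, which activates Aurora A on the spindle, read -0.055 and -1.17 on the vector arrays and 0.57 and 0.30 on the cluster arrays. Its vector gap was 1.12 and its difference 1.05 ± 0.39 (SE, limma adjusted p = 0.167). Hmmr, a spindle protein that is also a hyaluronan receptor, had the largest gap of the group, 1.47. It read 0.88 and -0.59 on the vector arrays and 0.85 and 0.86 on the cluster arrays, with a difference of 0.72 ± 0.49 (SE, limma adjusted p = 0.414). Vector replicate 1 was level with the cluster arrays for Hmmr and vector replicate 2 stood far below. The kinesin Kif11, which pushes spindle poles apart, read -0.059 and -0.98 on the vector arrays and 0.24 and 0.22 on the cluster arrays. Kif2c, a kinesin that takes microtubules apart, read -0.17 and -1.35 on the vector arrays and 0.090 and 0.18 on the cluster arrays. Tacc3, which stabilises microtubule bundles, read 0.60 and -0.40 on the vector arrays and 0.88 and 0.95 on the cluster arrays. In these 3 genes vector replicate 1 lay between vector replicate 2 and the cluster arrays. Nusap1, a microtubule-binding protein, read 0.061 and -1.37 on the vector arrays and -0.24 and -0.12 on the cluster arrays, with vector replicate 1 above both cluster arrays.

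In the central spindle and cytokinesis group, none of the 6 members had an unadjusted p under 0.05, and in all 6 the vector gap was larger than the difference. Racgap1, a subunit of centralspindlin, had the smallest p. It read -0.84 and -1.85 on the vector arrays and -0.37 and -0.52 on the cluster arrays, a vector gap of 1.01 and a difference of 0.90 ± 0.35 (SE, limma adjusted p = 0.184). Kif20a, a kinesin of the midzone, had the largest vector gap of all 44, 1.49. It read 0.20 and -1.29 on the vector arrays and 0.73 and 0.28 on the cluster arrays, with a difference of 1.06 ± 0.51 (SE, limma adjusted p = 0.267). Ect2, the exchange factor that turns on RhoA for the contractile ring, read 0.95 and -0.068 on the vector arrays and 0.49 and 0.27 on the cluster arrays. Both cluster arrays lay inside its vector gap of 1.02, and its difference was -0.065 ± 0.35 (SE, limma adjusted p = 0.93). Ect2 and Pttg1 were the 2 members with a negative difference.

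Ect2 is activated by Racgap1, and the other centralspindlin subunit is Kif23. Kif23 read 0.43 and -0.86 on the vector arrays and 0.37 and 0.43 on the cluster arrays. Prc1, which bundles midzone microtubules, read -0.096 and -0.96 on the vector arrays and -0.013 and -0.11 on the cluster arrays. Anln, the ring scaffold anillin, read 0.67 and -0.18 on the vector arrays and 0.85 and 0.71 on the cluster arrays. For Kif23 and Prc1 vector replicate 1 lay between the cluster arrays, and for Anln vector replicate 1 lay just below the cluster arrays. On a dimmer Anln probe vector replicate 1 was the highest array, at 1.89 against 1.80 and 1.47 on the cluster arrays.

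For chromosome structure, Mki67, the proliferation marker Ki-67 that coats mitotic chromosomes, had the lowest ratio of any member, on vector replicate 2. It read -0.98 and -2.37 on the vector arrays and -0.10 and -0.38 on the cluster arrays, with a vector gap of 1.39 and a difference of 1.44 ± 0.47 (SE, limma adjusted p = 0.133). Top2a, the topoisomerase that untangles sister chromatids, read 0.40 and -0.97 on the vector arrays and 0.84 and 1.06 on the cluster arrays, a difference of 1.23. Smc4, a condensin subunit, read 0.36 and -0.78 on the vector arrays and 0.34 and 0.47 on the cluster arrays, and its groups overlapped. On vector replicate 2 all 3 genes were at least 1.14 below vector replicate 1.

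**Figure D5:**
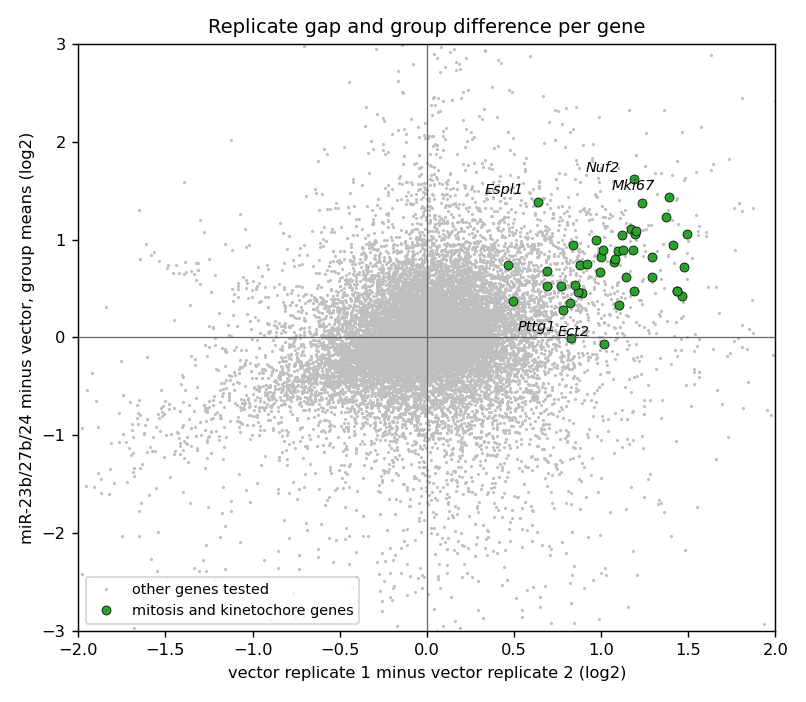
Difference between groups (y axis) against the gap between the vector arrays (x axis) for the 44 members (green) and the other genes tested (grey), both in log2; points beyond the axes are not drawn. All members lie to the right of 0, with gaps from 0.46 to 1.49, and 42 lie above 0.

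Position on the chromosome was looked at for the 7 members on chromosome 2. The 3 from 140 Mb on, Tpx2, Ube2c and Aurka, had a median difference of 1.00 and a median vector gap of 1.08. For the 4 before 140 Mb, Bub1b, Nusap1, Bub1 and Cdc25b, the medians were 0.68 and 1.17, and no test was made on such small sets.

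Other mitosis genes gave a wider spread. Of 104 such genes on a list outside the 44, 102 were measured, 8 were called higher and 1 lower, where 4.77% and 4.64% of all genes were, and their median difference was 0.62 with a median vector gap of 0.68. Troap, a spindle-associated protein also named tastin, read -0.88 and -1.25 on the vector arrays and 0.21 and 0.14 on the cluster arrays, a difference of 1.24 ± 0.17 (SE, limma adjusted p = 0.0213). Anapc5, a subunit of the anaphase-promoting complex, Cenpu, a centromere protein, and Bora, the Aurora A cofactor that activates Plk1, were higher by 0.93, 0.83 and 0.84. Their vector gaps were 0.21, 0.095 and 0.23, each below the smallest gap of the 44 members; being named for a small p favours a small gap. Psrc1, a spindle protein, was the gene called lower. It read -1.03 and -1.86 on the vector arrays and -4.08 and -4.24 on the cluster arrays, a difference of -2.71 ± 0.29 (SE, limma adjusted p = 0.0132).

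All 44 genes on a list of DNA replication were measured, and 6 were called higher and 0 lower, where 4.77% and 4.64% of all genes were, with a median difference of 0.90 and a median vector gap of 0.79. Fen1, the flap endonuclease, read -1.07 and -1.01 on the vector arrays and 0.22 and 0.15 on the cluster arrays; it was not among the 39 lowest on vector replicate 2, and it differed by 1.22 ± 0.12 (SE, limma adjusted p = 0.0102). Rpa2, Rfc3 and Pcna, of the single-strand binding complex, the clamp loader and the sliding clamp, were higher by 1.52, 0.89 and 1.95. The vector gap exceeded the difference in 16 of the 44 replication genes, in 37 of the 44 mitosis and kinetochore genes and in 45.2% of all genes, as a description with no test of these shares.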

How the data were processed

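Members and gene lists were chosen with earlier results of these data known, and the replacement of local backgrounds below was adopted after results without it had been seen. Per the file headers, the scanner software was Agilent Feature Extraction 9.5.3.1, whose files hold spot and local background intensity and a log10 ratio of Cy5 over Cy3. The authors' deposited value table holds log2 ratios, centred per probe over the 4 arrays, with 87.6% to 88.1% of values within 0.001 of the scanner's. Starting from mean intensities, outlying local backgrounds were set to the array's median; normexp (offset 50) and loess within arrays (control spots at weight 0) followed, in R 4.3.3 with limma 3.58.1. Outlier spots were left out. A probe was kept (30080 of 41174) if a group had it well above background in Cy5 on its 2 arrays, and a gene was read by its brightest probe (20500 genes). The test was limma's lmFit with eBayes (prior degrees of freedom 2.83, residual 2), and a call is a Benjamini-Hochberg adjusted p under 0.05. Probes were named through a RefSeq table of GRCm38.p6, while probe coordinates are mm7. Described in full were, per role, the members with the smallest p and the largest vector gap, called members, members with a negative difference and those on chromosome 2 from 140 Mb. For the other lists, up to 4 called genes per direction with the smallest p were named. Alternatives changed background, scaling, filter, probe, moderation, the reference channel, a replicate block and each array. The replicate numbers were not taken to pair arrays.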

Additional observations from a re-analysis of the deposited data

How the results depend on the processing

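With 2 arrays per group, the number of arrays limits every value. The count of members called higher was 1 under the main settings, 2 (Espl1 and Nuf2) with a replicate block and 0 with every local background as measured, and it ran from 0 to 42 when 1 array was left out. It was 1, Espl1, under all other alternatives run. The count called lower was 0 under all settings run. The median difference lay between 0.25 and 1.29 with 1 array left out and between 0.70 and 0.79 otherwise. The vector gap had a median between 1.03 and 1.34 and was above 0 for all 44 members in each setting that kept both vector arrays. Over all genes, the block gave 880 calls higher and 860 lower; deviations of same-numbered arrays correlated at 0.047 over genes, with 2 pairs only. Calls over all genes were 662 higher and 601 lower with median centring, 267 and 368 with local backgrounds all as measured, and with 1 array left out between 105 and 2221 higher and between 109 and 2363 lower. With 1 array left out, the differences that changed sign ran from -0.31 to 1.16 for Ccnb1, from -0.25 to 1.19 for Ccnb2, from -0.22 to 0.89 for Cks2, from -0.24 to 1.19 for Nusap1, from -0.11 to 0.67 for Cdc25b, from -0.11 to 1.07 for Cdca3, from -0.060 to 0.76 for Mad2l1, from -0.028 to 1.26 for Kif23, from -0.020 to 1.45 for Hmmr, from -0.57 to 0.44 for Ect2 and from -0.42 to 0.41 for Pttg1. The lowest value was without vector replicate 2 and the highest without vector replicate 1 in each. Pttg1 also read 0.011 with every local background as measured. The cause of these changes was not tested.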
